A study of Mus musculus with 9 samples.

Results

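The step from MOSE-I to MOSE-L was described across all genes measured on 6 arrays of mouse ovarian surface epithelial (MOSE) cells, the single layer of cells that covers the ovary. MOSE-L stands for cultures of late passage (136, 142 and 143) and MOSE-I for cultures of intermediate passage (63, 71 and 73). Members were all genes with a probe set whose signal passed 500 on 1 or more of these 6 arrays, a filter that kept 13310 of 45037 probe sets and 7724 of the 18194 genes that a probe set named alone. All cells came from C57BL6 mice. The labels name neither an introduced gene nor a treatment, and all cells were grown in high glucose DMEM with 4% fetal bovine serum, penicillin, streptomycin, insulin, transferrin and sodium selenite. The labels grade the malignant potential as non-malignant for MOSE-E, intermediate for MOSE-I and malignant for MOSE-L. MOSE-E, the early cultures of passages 13, 14 and 15, served as a further stage whose 3 arrays added to the estimate of the spread and are given as values beside the genes described. The 3 arrays of a stage were cultures of 1 continuously passaged cell series, so each p-value measured the spread between passages and not between mice.

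Ovarian surface epithelium is a mesothelium-like layer that keeps both epithelial and mesenchymal traits, with keratins, Wt1 and mesothelin on one side and collagens and contractile proteins on the other. Passaged long enough in culture, mouse cells of this layer can transform without any introduced oncogene. The comparison of MOSE-L with MOSE-I asks which genes differ between cells of the intermediate and of the malignant grade, after the cells had already left the early stage.

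Levels are MAS 5.0 signals, the brightness of a probe set after each array was scaled to a trimmed mean of 500. Log2 changes are differences of stage means of log2(signal + 50), MOSE-L minus MOSE-I, which understates the change of genes with low signals. A call asked for an adjusted p no higher than 0.05 together with a log2 change of at least 1 in size. By this rule 1108 probe sets, 8.32% of those tested, were higher in MOSE-L, and 777, or 5.84%, were lower. With 1 probe set a gene, 588 genes (7.61%) were higher and 463 (5.99%) were lower. The median change over all tested genes was -0.01 on the log2 scale. The median size of a called change was 1.50 among the genes called higher and 1.40 among those called lower, and 138 and 78 of them changed by 2 or more. Centring each array on its median signal in place of the trimmed mean moved every log2 change by -0.18, and the genes called then numbered 416 higher and 748 lower. The 416 were all among the 588 and the 463 all among the 748, so that the balance of higher and lower calls depended on the scaling.

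**Figure D1:**
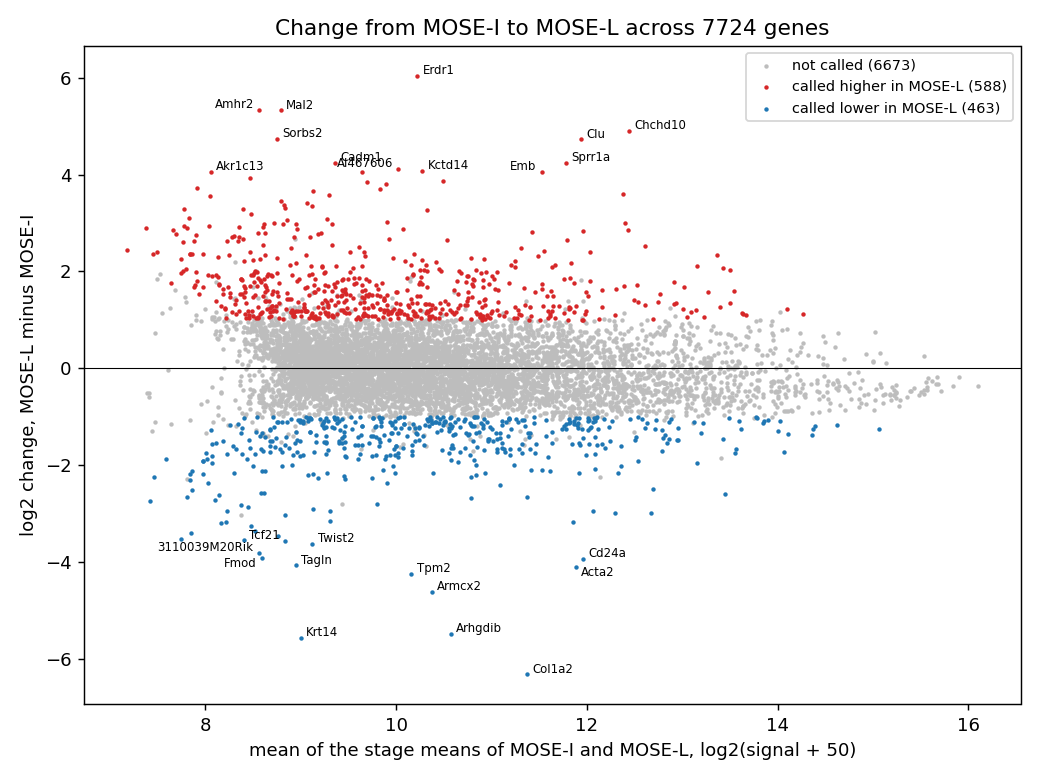
Each point is 1 of the 7724 genes, with the mean of its MOSE-I and MOSE-L levels on the horizontal axis, as log2(signal + 50), and the log2 change from MOSE-I to MOSE-L on the vertical axis. Red points are the 588 genes called higher in MOSE-L, blue points the 463 called lower, grey points the rest, and the 12 largest rises and 12 largest falls carry their names.

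Of the 7724 genes, 6328 were over 500 on at least 1 array of both stages, and 299 of these were called higher and 323 lower. Another 907 genes were over 500 in MOSE-L only, of which 289 were called higher, and 489 were over 500 in MOSE-I only, of which 140 were called lower. A gene that entered through 1 stage alone was tilted toward that stage by the filter, so the counts in these sets are no measure of direction. The 3 MOSE-L signals lay wholly above or below the 3 MOSE-I signals for 3451 genes, 44.7% of those tested. Of the 1051 called genes, 402 had more than 1 probe set past the filter. At least 1 further probe set was called the same way for 288 of these, and none had a probe set called the opposite way.

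Across the tested probe sets the arrays of a stage were alike but not equally so. Pearson's r of log2 signals, taken across probe sets, which are not independent replicates, ranged from 0.938 to 0.985 within MOSE-I and from 0.881 to 0.930 within MOSE-L. MOSE-L replicate 3 (passage 143) stood apart from the other MOSE-L arrays and had the lowest correlations with the MOSE-I arrays, between 0.723 and 0.748. Its ratio of the 3′ to the 5′ control probe set for beta-actin, a sign of how complete the labelled RNA was, was 1.83, against 1.31 to 1.45 on the other 5 arrays, whereas the same ratio for Gapdh was 0.727 against 0.735 to 0.810. Without this array 384 genes were called higher and 287 lower, of which 355 and 267 were also called with it. The array files of MOSE-I are numbered 4 to 6 and those of MOSE-L 13 to 15, and whether they were hybridised together is not given in the sources used here, so that an array batch and the stage cannot be told apart.

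Most markers of the labelled cell type, but not all, were present at both stages. Of 26 markers of ovarian surface epithelium and mesothelium with a probe set, 20 were over 500 on a MOSE-I array and 19 on a MOSE-L array. On these 6 arrays 5 never passed 500, namely Muc16, Gata4, Cdh1, Lhx9 and Lgr5, and were untested. Muc16 measured 242, 133 and 266 in MOSE-L and 16.7, 78.3 and 94.4 in MOSE-I. Gata4 measured 494, 323 and 370 in MOSE-L and 169, 149 and 66.6 in MOSE-I. Both were higher in MOSE-L without overlap, while Cdh1, Lhx9 and Lgr5 overlapped between the stages. Cdh1 measured 949, 782 and 486 in MOSE-E and at most 73.2 in MOSE-I and 93.3 in MOSE-L. Krt7 measured 2793, 3487 and 3703 in MOSE-E, 75.8, 545 and 260 in MOSE-I and 202, 89.3 and 95.1 in MOSE-L. Lrrn4, at 3077, 8341 and 10890 in MOSE-E, had means of 1192 in MOSE-I and 1400 in MOSE-L. Upk3b, a uroplakin of mesothelium, measured 28467, 16607 and 21390 in MOSE-L against 6290.5, 21384 and 13851 in MOSE-I, and Upk1b measured 12058, 13589.6 and 13189 in MOSE-L and 11115, 20224 and 11534 in MOSE-I, with overlapping ranges for both genes. Of 16 leukocyte markers 14 never passed 500, and Ptprc, which marks all leukocytes, stayed at or under 35.2 on all 6 arrays. Of 12 endothelial markers 11 never passed 500, Pecam1 reached at most 63.5, and Esam was the 1 over it. The summed signal of the leukocyte markers ran from 1700.2 to 2967 in MOSE-I and from 1949 to 2533 in MOSE-L, and that of the 15 fibroblast markers from 31367 to 87588 and from 40908 to 51627. Of these 15, 7 were over 500 on a MOSE-I array, 5 on a MOSE-L array and 8 on none. Col3a1 had means of 12145 in MOSE-I and 16158 in MOSE-L, and Dcn of 12239 and 22527. The granulosa and theca markers Fshr, Amh and Cyp17a1 reached at most 149, 97.4 and 65.0 on these arrays, 9 of the list's 11 never passed 500, and its sum ran from 16908 to 24731 in MOSE-I and from 16621 to 23844 in MOSE-L, most of it Gja1. The sum of the endothelial markers ran from 1039 to 1403 in MOSE-I and from 1556 to 3390.0 in MOSE-L and followed Esam, while Cdh5 reached at most 109 and Tie1 and Vwf at most 18.9.

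The largest rises were in genes that were close to background in MOSE-I. Amhr2, the receptor of anti-Mullerian hormone that marks cells of the Mullerian duct lineage and the ovarian surface, measured 4482, 1538 and 1534 in MOSE-L against 4.21, 5.19 and 8.70 in MOSE-I. The stages were wholly apart, with a log2 change of 5.33 ± 0.47 (SE, n = 3 arrays a stage, limma adjusted p = 6.13e-05), and MOSE-E was near background too, at 9.38, 3.63 and 14.3. Erdr1, named for its role in red cell differentiation, measured 3353, 13392 and 14892 in MOSE-L and 80, 80 and 93.2 in MOSE-I, a log2 change of 6.04 (adjusted p = 0.000104) and the largest rise of all. Mal2, a membrane protein of apical transport in polarised epithelia, went from at most 57.0 on a MOSE-I array to 2704, 1888 and 3548 in MOSE-L (log2 change 5.32, adjusted p = 3.33e-05). Sorbs2, an adaptor of actin structures and cell junctions, measured 1898, 2972 and 1676 in MOSE-L against 40.1, 11.5 and 47.7 in MOSE-I, and the adhesion molecule Cadm1 measured 2356, 3211 and 2860.3 in MOSE-L and 93.5, 108 and 98.7 in MOSE-I. None of these 5 genes had a MOSE-I signal over 109, and the lack of overlap between the stages was a condition of their choice.

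Other large rises started from a clear MOSE-I signal and reached some of the brightest levels on the arrays. Chchd10, a protein of the mitochondrial intermembrane space, measured 30443, 21610.3 and 34867 in MOSE-L against 677, 1776 and 605 in MOSE-I (log2 change 4.90 ± 0.40, adjusted p = 4.17e-05). Clu, which encodes clusterin, a secreted chaperone that also restrains complement, measured 11395, 18868 and 31628 in MOSE-L and 467, 990.1 and 639 in MOSE-I (log2 change 4.73, adjusted p = 4.17e-05). Both genes were low in MOSE-E as well, at 891, 501 and 399 for Chchd10 and 519.8, 852 and 1014 for Clu. Sprr1a, a precursor of the cornified envelope, rose by 4.24 on the log2 scale, from 291, 1304 and 847 to 11104, 17207 and 14494 (adjusted p = 0.000111). Emb, which encodes embigin, an ancillary protein of lactate transporters, already lay higher in MOSE-I than in MOSE-E, with 65.7, 11.3 and 31.4 in MOSE-E, 953, 668 and 392 in MOSE-I and 8869, 18058 and 9126 in MOSE-L (adjusted p = 7.22e-05 for MOSE-L against MOSE-I). The remaining 3 of the 12 largest rises were Kctd14 (4.07), the aldo-keto reductase Akr1c13 (4.06) and the uncharacterised AI467606 (4.12), each on the log2 scale. Akr1c13 has close relatives in the mouse genome, so its probe set may read more than 1 of them.

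**Figure D2:**
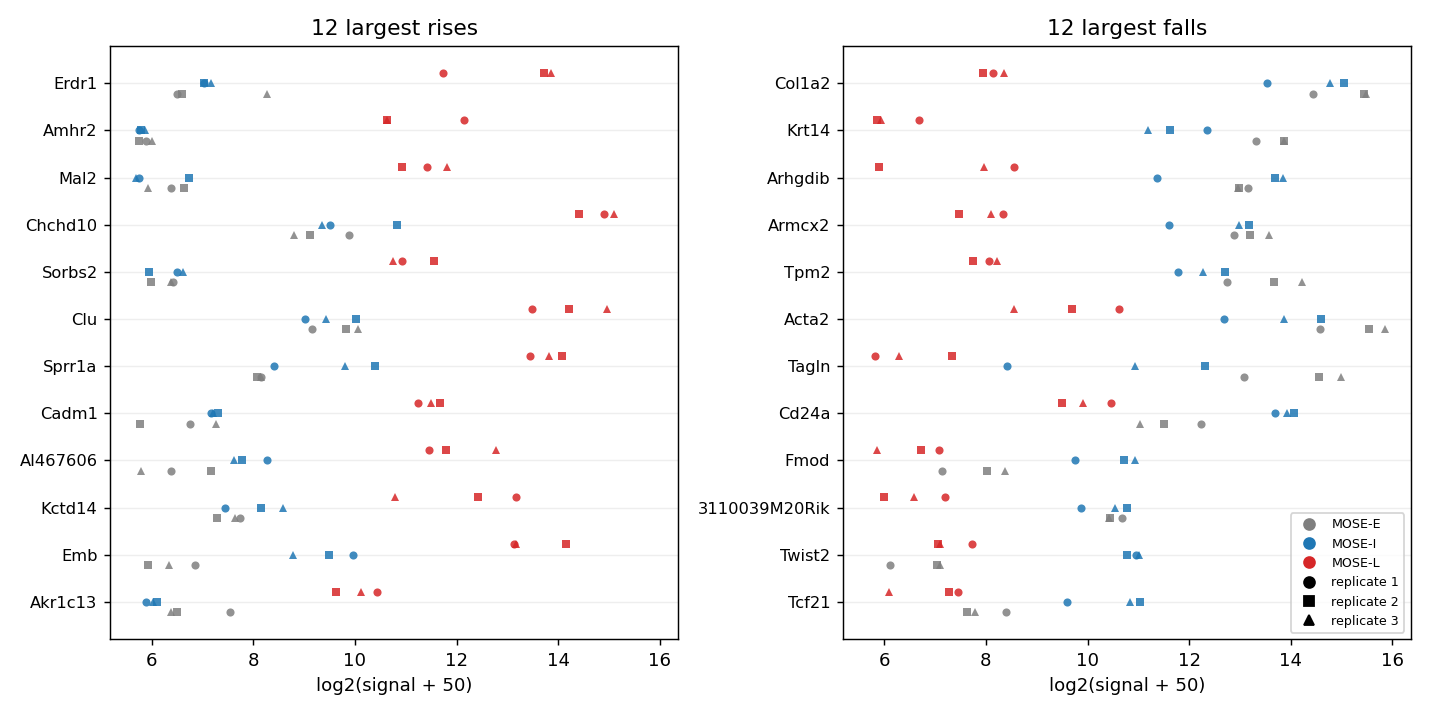
Signals on every array, as log2(signal + 50), of the 12 genes with the largest rises (left) and the 12 with the largest falls (right) from MOSE-I to MOSE-L, with the stages in colour and the replicates as symbols. Only called genes whose MOSE-L arrays lie apart from the MOSE-I arrays were ranked, so this separation follows from the choice. Cd24a, Fmod, Twist2 and Tcf21 are higher in MOSE-I than in MOSE-E before they fall.

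The largest fall was in Col1a2, which encodes the second chain of collagen I. It measured 11843, 33884 and 28098 on the MOSE-I arrays and 231, 195 and 277 on the MOSE-L arrays, a log2 change of -6.32 ± 0.39 (adjusted p = 1.25e-05), and had been at 22129, 44516 and 45779.9 in MOSE-E. Its partner chain Col1a1 was not lost in step, with 2396, 3657 and 3937 in MOSE-L against 4645, 7752 and 6086 in MOSE-I (log2 change -0.88, adjusted p = 0.119), and Col3a1 and the small proteoglycan Dcn had log2 changes of 0.48 and 1.17 (adjusted p = 0.406 and 0.0966). Krt14, a keratin of basal epithelial layers, measured 5139.7, 3088 and 2277 in MOSE-I and 52.5, 7.60 and 10.9 in MOSE-L (log2 change -5.56, adjusted p = 7.13e-06). Arhgdib measured 2606, 13104 and 14612 and then 326, 9.92 and 200.5 (log2 change -5.49, adjusted p = 0.000801). For Krt14 and Arhgdib the highest MOSE-L signal lay far below the lowest MOSE-I and MOSE-E signals. Armcx2, an armadillo-repeat gene on the X chromosome, had a log2 change of -4.62, and 3110039M20Rik, a gene of unknown function, was also among the 12 largest falls. All 24 genes in the plot of the largest changes stayed called with any 1 of the 9 arrays left out.

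Some of the genes that fell had been at their highest in MOSE-I. Cd24a, a small glycoprotein anchored at the cell surface, measured 4775, 2871 and 2052 in MOSE-E, 13146, 17127 and 15464 in MOSE-I and 1364, 672 and 909 in MOSE-L (log2 change -3.94 ± 0.32 for the last step, adjusted p = 4.17e-05). Twist2, a helix-loop-helix factor of mesenchyme, measured 18.8, 81.3 and 87.3, 1936, 1706 and 2010.2 and 161, 82.7 and 87.5 in the same order (log2 change -3.62, adjusted p = 7.74e-05). The MOSE-I level of both genes stood above both other stages, and MOSE-L lay under the MOSE-E range for Cd24a and near it for Twist2. The mesenchymal factor Tcf21 (-3.55), the collagen-binding fibromodulin gene Fmod (-3.92) and Il33 (-2.16, adjusted p = 0.011), an alarmin of barrier cells, had MOSE-E signals of at most 402 and the highest levels in MOSE-I as well, and the values in parentheses are log2 changes from MOSE-I to MOSE-L.

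Below, a count that moved by over 1.5 times when 1 array was left out is given with that array, named by stage letter and replicate (I3 is MOSE-I replicate 3). A gene that passed the filter in 1 stage alone had to be the brighter there, so a call of such a gene follows in part from the filter. List counts stand beside 7.61% of all tested genes called higher and 5.99% lower. A count near these shares is nothing particular to its list.

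Among the listed contractile genes and SRF targets, with 1 probe set a gene, the calls were all lower in MOSE-L, though most members were not called. Cald1, which encodes an actin-binding protein, had 4 probe sets past the filter, of which 1 was called higher and none lower. In smooth muscle and in stretched fibroblasts the serum response factor SRF turns on actin, tropomyosin and calponin genes together. Of 31 listed contractile genes and SRF targets 22 passed the filter, none was called higher and 6 were called lower, with a median log2 change of -0.53 (-0.70 with median centring). Tpm2, which encodes beta-tropomyosin, measured 217, 165 and 247 in MOSE-L against 3465, 6638 and 4897 in MOSE-I (log2 change -4.25, adjusted p = 4.54e-05). Acta2, smooth muscle actin, measured 1515, 780.2 and 323 in MOSE-L and 6558, 24746 and 14825 in MOSE-I (log2 change -4.10, adjusted p = 0.00115), and Tagln, an actin-bundling protein, 6.59, 111 and 28.5 in MOSE-L against 289.6, 5033 and 1916 in MOSE-I (log2 change -4.07, adjusted p = 0.00816). Their ranges did not overlap, a condition of the choice of the largest falls. The MOSE-I arrays varied among themselves most of all for Tagln, with replicate 1 the lowest for all 3 genes. Tgfb1i1, a focal adhesion adaptor, had a log2 change of -2.94 (adjusted p = 0.00525). Of the contractile genes, 3 of 6 called lower had passed the filter in MOSE-I alone.

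Membrane and adhesion proteins that tie into the cytoskeleton were called in both directions, most of them not at all. Cav1 and Cavin1, which build caveolae, had log2 changes of -1.66 and -1.78 (adjusted p = 0.000845 and 0.00844), and Cav1 measured 8348, 6144 and 5884 in MOSE-L and 19920.5, 24166 and 20283 in MOSE-I. Among 24 focal adhesion genes tested, 1 was called higher and 2 lower, with a median of -0.01. Over all tested genes 7.61% were called higher and 5.99% lower, and counts this small do not set the list apart. Pdlim1, an adaptor of actin stress fibers, fell by 1.58 on the log2 scale (adjusted p = 0.000864). None of the 7 integrin chains tested had a negative change, and 2 were called higher. Itgb1, the common beta chain of matrix receptors, measured 7105, 11007 and 11510.2 in MOSE-L against 4224, 3839 and 3534 in MOSE-I (log2 change 1.31, adjusted p = 0.00419), and its laminin-binding partner Itga6 had a log2 change of 1.35 (adjusted p = 0.00574). Among the focal adhesion genes, 1 of 2 called lower had passed the filter in MOSE-I alone. The 1 focal adhesion gene called higher became 0 without E2, E3, I1, I3 or L3 and 2 without L1, and the 2 called lower became 1 without I3 or L3. The 2 integrin chains called higher became 5 without L1.

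Epithelial markers and junction genes did not move as 1 block. Krt8, a keratin of simple epithelia, measured 9032, 7610.4 and 3534 in MOSE-L and 20066, 20059 and 23512 in MOSE-I, lower in MOSE-L with a log2 change of -1.75 (adjusted p = 0.00328). Its partner Krt18 overlapped between the stages and was not called (log2 change -0.68, adjusted p = 0.12), and Krt19 had a log2 change of -0.82. All 9 tested genes of keratins and other intermediate filaments had negative changes, and 3 were called lower. Markers of mesothelium and surface epithelium split. Msln, which encodes mesothelin, measured 2141, 4295 and 5671 in MOSE-L against 1024, 1234 and 714 in MOSE-I (log2 change 1.90, adjusted p = 0.00418), Gpm6a had a log2 change of 1.78 (adjusted p = 0.00174) and Wt1, the transcription factor that defines mesothelium, 1.09 (adjusted p = 0.0197). Msln in MOSE-L came back toward MOSE-E, where it had been at 4478, 6385 and 5325. Efemp1 and Crip1 of the same list were called lower, with log2 changes of -1.33 and -1.74 (adjusted p = 0.0135 and 0.00663), and Bnc1, a zinc finger factor, was not called at -0.73 (adjusted p = 0.0841). In all, 5 of the 21 tested genes of the list were called higher and 3 lower, with a median of 0.14, which turned to -0.03 with median centring. Among 20 tested genes of cadherins, catenins, tight junctions and desmosomes, 3 were called higher and 1 lower. Nectin3, an adhesion molecule of adherens junctions, measured 2.27, 35.1 and 23.9 in MOSE-L and 962, 618 and 528 in MOSE-I (log2 change -3.40), while its relative Nectin2 measured 2157, 1459 and 4557 in MOSE-L against 368, 682 and 558 in MOSE-I (log2 change 2.12) and the desmosomal cadherin Dsg2 340.1, 277 and 893 in MOSE-L and 43.9, 60.5 and 37.6 in MOSE-I (log2 change 2.35, adjusted p = 0.00926). The tight junction gene Cldn15 had a log2 change of 1.88 (adjusted p = 0.00458). The call of Wt1 ended without MOSE-I replicate 1 (adjusted p = 0.065), MOSE-I replicate 3 (adjusted p = 0.064) or MOSE-L replicate 1 (log2 change 0.83). The call of Efemp1 ended without MOSE-I replicate 3 (adjusted p = 0.0533). Dsg2 did not pass the signal filter, and so was not tested, without MOSE-L replicate 3. Among the intermediate filament genes, 1 of 3 called lower, Krt14, had passed the filter in MOSE-I alone. Among the surface epithelium and mesothelium genes, 1 of 5 called higher, Amhr2, had passed it in MOSE-L alone. The 3 surface epithelium and mesothelium genes called lower became 5 without I1. Of the junction genes, 1 of 3 called higher had passed the filter in MOSE-L alone and the 1 called lower in MOSE-I alone.

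Of the transcription factors known from epithelial-mesenchymal transition, 9 were tested, of which 3 were called lower and 1 higher. Beside Twist2, its relative Twist1 measured 69.3, 37.9 and 15 in MOSE-L against 445, 489.9 and 577 in MOSE-I (log2 change -2.65, adjusted p = 0.000261), and Prrx1, a homeobox factor of mesenchyme, 426, 309 and 337 in MOSE-L and 1344, 1587 and 1370.4 in MOSE-I (log2 change -1.87). Tcf4, an E protein that can repress Cdh1, went up, with 864, 1137 and 1012 in MOSE-L against 434, 411 and 439.5 in MOSE-I (log2 change 1.13, adjusted p = 0.00268). The list's median was 0.21, above 0 although more members were called lower, and -0.16 without MOSE-L replicate 3. Hox genes, which give cells their position along the body axis, were tested for 8 of 39, and 4 were called lower and none higher. Hoxa9 measured 109, 169 and 213 in MOSE-L and 1956, 2079 and 1432 in MOSE-I (log2 change -3.14 ± 0.22, adjusted p = 2.69e-05). Hoxc10, Hoxa11 and Hoxb3 had log2 changes of -2.82, -2.87 and -2.37 (adjusted p = 3.33e-05, 0.000659 and 0.00165). These 4 came from the clusters A, B and C, had MOSE-L signals of at most 213, and had MOSE-E signals of at least 451 each, with 2731, 2593 and 2333 for Hoxa9. Other tested members of the A cluster were not called, with log2 changes of -0.23 for Hoxa5 and -0.99 for Hoxa10, and neither were Hoxd8 (-0.37) and Hoxd9 (0.20). All 4 calls held with each array left out in turn, but each of these 4 genes had passed the filter through MOSE-I alone, where it had to be the higher, and the 4 tested Hox genes over 500 at both stages were not called. Twist1 did not pass the signal filter, and so was not tested, without MOSE-I replicate 3. Of the transition factors, the 1 called higher had passed the filter in MOSE-L alone and 3 of 3 called lower in MOSE-I alone. The 1 transition factor called higher became 2 without L1.

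Matrix genes changed in both directions. Of 30 tested collagens, laminins and matrix glycoproteins 4 were called higher and 5 lower, with a median of -0.07, beside 7.61% and 5.99% of all tested genes. After Col1a2 and Fmod, the largest falls of the list were in tenascin C and in nidogen (Nid1), a basement membrane linker with a log2 change of -2.19 (adjusted p = 0.00112). Nid1 had already dropped before this step, with 4101, 9706 and 7663 in MOSE-E, 359.9, 465 and 654 in MOSE-I and 66.8, 62.2 and 70.2 in MOSE-L. Among 17 tested enzymes that process and crosslink collagen, 3 were called higher and 2 lower. Loxl1, a lysyl oxidase, measured 7777, 7328 and 7816 in MOSE-L against 2898, 2128 and 1639 in MOSE-I (log2 change 1.80, adjusted p = 0.00108), and the collagen hydroxylases Plod2 and P3h2 had log2 changes of 1.83 and 2.23 (adjusted p = 0.00805 and 0.00111). Pcolce2, an enhancer of procollagen cleavage, fell by 1.79 (adjusted p = 0.00458). Of the proteases that cut matrix Mmp2, or gelatinase A, measured 83.8, 56 and 53.3 in MOSE-L and 806, 1228 and 1139.6 in MOSE-I (log2 change -3.27 ± 0.22, adjusted p = 2.64e-05), Adam12 had a log2 change of -3.02 (adjusted p = 0.00151) and Mmp3 of -1.91 (adjusted p = 0.0105). Adamts1, a protease that cuts proteoglycans, had a log2 change of 1.87 (adjusted p = 0.0184), and 4 of the 16 tested genes of this list were called higher and 3 lower, with a median of 0.11 that was -0.07 with median centring and -0.61 without MOSE-L replicate 3. Nid1 did not pass the signal filter, and so was not tested, without MOSE-I replicate 3. Mmp3 did not pass the signal filter, and so was not tested, without MOSE-I replicate 2. The call of Adamts1 ended without MOSE-I replicate 2 (adjusted p = 0.0577), MOSE-I replicate 3 (adjusted p = 0.0684) or MOSE-L replicate 3 (adjusted p = 0.057). Of the matrix genes, 1 of 4 called higher had passed the filter in MOSE-L alone and 4 of 5 called lower in MOSE-I alone. The 4 matrix genes called higher became 2 without I3, L2 or L3, and the 5 called lower became 3 without I3. Among the collagen enzymes, 1 of 3 called higher had passed the filter in MOSE-L alone. The 2 collagen enzymes called lower became 1 without I1, I2, I3, L1 or L2. Of the protease and inhibitor genes, 2 of 4 called higher had passed the filter in MOSE-L alone and 3 of 3 called lower in MOSE-I alone. The 4 protease and inhibitor genes called higher became 1 without I3 or L3 and 2 without I1, I2 or L2, and the 3 called lower became 5 without L3.

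Growth factor ligands and receptors were called in both directions, beside 7.61% of all genes called higher and 5.99% lower, and many had passed the filter through 1 stage alone. Receptor tyrosine kinases carry most growth factor signals into the ERK and PI3K pathways. Of 21 tested receptor tyrosine kinases 8 were called higher and 4 lower, with a median of 0.90. Of the 21, 9 had passed the filter in MOSE-L alone and 3 in MOSE-I alone, which tilts this median. Flt4, the receptor of VEGF-C, measured 1411, 2276 and 1242 in MOSE-L against 31.2, 133 and 195 in MOSE-I (log2 change 3.41, adjusted p = 0.000471), and the kinase-dead ephrin receptor Ephb6 had a log2 change of 2.26 (adjusted p = 0.00784). The PDGF receptor Pdgfrb fell, with 92.5, 148 and 138 in MOSE-L and 404, 674 and 1011 in MOSE-I (log2 change -2.01, adjusted p = 0.00415), and so did the collagen receptor Ddr2 (-2.17, adjusted p = 0.00625), while the other PDGF receptor, Pdgfra, was not called (-0.26, adjusted p = 0.788), all as log2 changes. Of 24 tested ligands 7 were called higher and 1 lower, with a median of 0.60. Gas6, the ligand of the Tyro3, Axl and Mer receptors, measured 2442, 3263 and 2295 in MOSE-L against 223, 310.1 and 325 in MOSE-I (log2 change 3.01, adjusted p = 0.00101), and betacellulin (Btc), a ligand of the EGF receptor, 1721, 5667 and 1897 in MOSE-L and 304, 357 and 290 in MOSE-I (log2 change 2.88, adjusted p = 0.00218). Angptl4, a secreted inhibitor of lipoprotein lipase, had a log2 change of 2.65 (adjusted p = 0.00625). Genes that ERK induces as its own brakes had positive changes in all 14 tested, 6 of them called, with a median of 0.87 (0.70 with median centring). Spry2 and Spry4, which encode Sprouty proteins, had log2 changes of 1.62 and 1.57 (adjusted p = 0.00409 and 0.00225), and Il17rd, or Sef, of 2.22 (adjusted p = 0.00479). Immediate early genes, which serum and stress turn on within minutes, were called higher for 4 of 22 tested and lower for none, with Ier3 at 9210.2, 11313 and 15266 in MOSE-L against 4273, 3637 and 4101 in MOSE-I (log2 change 1.54, adjusted p = 0.00228) and Btg2, a brake on proliferation, at a log2 change of 1.34 (adjusted p = 0.00129). Ephb6 did not pass the signal filter, and so was not tested, without MOSE-L replicate 3. Of the receptor tyrosine kinases, 7 of 8 called higher had passed the filter in MOSE-L alone and 2 of 4 called lower in MOSE-I alone. The 8 receptor tyrosine kinases called higher became 5 without L3, and the 4 called lower became 2 without I3. Of the ligands, 4 of 7 called higher had passed the filter in MOSE-L alone and the 1 called lower in MOSE-I alone. For the ERK brakes 2 of 6 called higher, and for the immediate early genes 1 of 4, had passed it in MOSE-L alone. The 1 ligand called lower became 2 without I1 or L1.

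In the insulin-like growth factor axis 5 of 15 tested genes were called higher and 2 lower. Igfbp7, a secreted binding protein, measured 13733, 22645 and 19433 in MOSE-L and 1359, 1852 and 1229 in MOSE-I (log2 change 3.60 ± 0.28, adjusted p = 4.12e-05). Htra1, a secreted protease that cuts binding proteins, measured 10799, 16713 and 29595 in MOSE-L against 2326, 6094 and 4459 in MOSE-I (log2 change 2.12, adjusted p = 0.00536). Igf2r, the receptor that clears IGF2 and sorts lysosomal enzymes, had a log2 change of 1.74 (adjusted p = 0.0116). Igfbp7 and Htra1 were lowest in MOSE-I among the stages, since MOSE-E measured 3469.6, 5689 and 6847 for Igfbp7 and 9961, 14474 and 12533 for Htra1. Among the growth factor axis genes, 2 of 5 called higher had passed the filter in MOSE-L alone and 1 of 2 called lower in MOSE-I alone. The 2 growth factor axis genes called lower became 0 without L2, 1 without I2, I3 or L3 and 4 without I1.

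TGF-beta family members and Wnt genes were called in both directions as well. Activins and inhibins are dimers that regulate follicle-stimulating hormone, and Inhbb encodes one of their beta subunits. Inhbb measured 1074, 1480.5 and 1458 in MOSE-L and 46.3, 39 and 36.1 in MOSE-I (log2 change 3.93 ± 0.34, adjusted p = 5.69e-05), and the BMP antagonist Grem1 measured 711, 2479 and 1912 in MOSE-L against 357, 166 and 242 in MOSE-I (log2 change 2.40, adjusted p = 0.00695). In both genes the groups were fully apart, and both were low in MOSE-E, at 49.9, 164 and 128 and 111, 31.2 and 158. In all, 7 of 33 tested genes of the family were called higher and 3 lower, with a median of 0.04 that turned to -0.13 with median centring and to -0.01 with quantile normalization. Wnt genes were called higher for 9 of 24 tested and lower for 1, with a median of 0.46. The ligand Wnt10a had a log2 change of 2.61 (adjusted p = 0.00533), the receptor Fzd5 measured 1402, 3219 and 2171 in MOSE-L and 553, 433 and 592 in MOSE-I (log2 change 1.94, adjusted p = 0.00141), and Lgr4, a receptor for R-spondins that strengthens Wnt signals, measured 5328, 6244 and 6887 in MOSE-L against 649, 2008 and 2086 in MOSE-I (log2 change 2.09, adjusted p = 0.00525). The Hedgehog co-receptor Cdon measured 3701, 5097 and 4867 in MOSE-L and 1128, 1528 and 1552 in MOSE-I (log2 change 1.66, adjusted p = 0.000485) and was the 1 of 14 tested Notch and Hedgehog genes that was called. Of the TGF-beta family genes, 4 of 7 called higher had passed the filter in MOSE-L alone and 1 of 3 called lower in MOSE-I alone. The 7 TGF-beta family genes called higher became 4 without L3, and the 3 called lower became 1 without I2, I3 or L3. Of the Wnt genes, 6 of 9 called higher had passed the filter in MOSE-L alone. The 1 Wnt gene called lower became 2 without I1. The 1 Notch and Hedgehog gene called higher became 3 without L1 or L2.

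Genes of DNA replication and mitosis were lower in MOSE-L, most of all on 1 array. Replication enzymes and spindle proteins are made in the S and M phases, so that their RNA rises and falls with the share of cycling cells. In bulk RNA fewer cycling cells and less RNA per cell cannot be told apart. The study cites a faster growth of MOSE-L cells from its earlier work, and growth was not measured on these arrays. All 47 tested genes of the 52 listed for DNA replication had negative changes, 31 were called lower and none higher, and the median was -1.36. Of 57 tested genes of mitosis and the spindle 29 were called lower and none higher, with a median of -1.46. On the single MOSE-L arrays the median difference from the MOSE-I mean was -1.08, -0.63 and -2.17 for DNA replication and -0.89, -0.62 and -2.83 for mitosis, in the order of the replicates, so that replicate 3 was the lowest by far. Without MOSE-L replicate 3 the medians were -0.85 and -0.77, and 14 genes of each list were called lower. Rrm2, a subunit of ribonucleotide reductase, measured 5782, 8900.4 and 1040.5 in MOSE-L against 28736, 21336 and 20619 in MOSE-I (log2 change -2.60 ± 0.59, adjusted p = 0.012), and Tk1, thymidine kinase, 1347, 2007 and 197 in MOSE-L and 4666, 5520.5 and 6799 in MOSE-I (log2 change -2.66, adjusted p = 0.0118). The groups were apart in both genes, also for replicates 1 and 2. Birc5, or survivin, a protein of the dividing chromosomes, measured 2776, 2456 and 242 in MOSE-L against 10404, 8891 and 10004 in MOSE-I (log2 change -2.94, adjusted p = 0.012). The licensing factor Cdc6 (-2.02), the helicase subunit Mcm5 (-2.17) and the kinetochore genes Cenph (-2.26) and Spc25 (-2.21) changed likewise, as log2 changes, with adjusted p between 0.00784 for Cenph and 0.0174 for Mcm5. Rrm2 had a log2 change of -1.69 (adjusted p = 0.00155) without MOSE-L replicate 3. Tk1 had a log2 change of -1.74 (adjusted p = 0.00142) without MOSE-L replicate 3. Birc5 had a log2 change of -1.88 (adjusted p = 0.000259) without MOSE-L replicate 3. The call of Mcm5 ended without MOSE-I replicate 1 (adjusted p = 0.0535). Mcm5 had a log2 change of -1.32 (adjusted p = 0.00171) without MOSE-L replicate 3. Of the 31 replication genes called lower 2 had passed the filter in MOSE-I alone, and of the 29 mitosis genes 2. The 31 replication genes called lower became 12 without I1, 14 without L3 and 16 without I3. The 29 mitosis genes called lower became 6 without I3, 10 without I1, 12 without I2, 14 without L3 and 48 without L2. The same array had the highest 3′ to 5′ ratio for beta-actin, whose part in these levels was not tested.

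**Figure D3:**
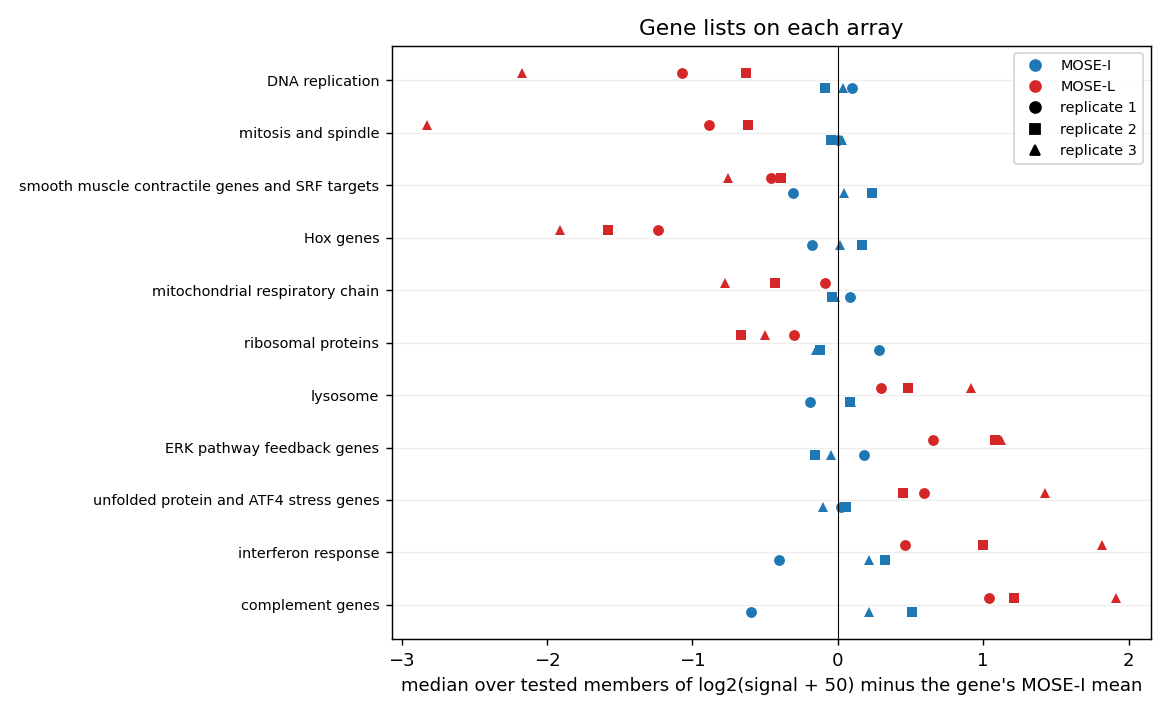
For 11 gene lists, the median over tested members of log2(signal + 50) minus the gene's own MOSE-I mean on each of the 6 arrays, with stages in colour and replicates as symbols. DNA replication and mitosis are lower on all 3 MOSE-L arrays and lowest on replicate 3, at -2.17 and -2.83, and interferon, complement and stress genes are highest on the same array.

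Of 18 tested G1 cyclins, kinases and inhibitors 2 were called lower, both cyclins E, with log2 changes of -1.49 for Ccne1 and -1.46 for Ccne2 (adjusted p = 0.0276 and 0.0138), and 1 higher. Of 15 tested enzymes of DNA methylation and Polycomb 3 were called higher and 2 lower, with a median of -0.15. Ezh2, the Polycomb methyltransferase tied to dividing cells, had a log2 change of -1.13 (adjusted p = 0.0145) and its paralog Ezh1 of 1.38 (adjusted p = 0.0136). Ezh1 measured 642, 801 and 756 in MOSE-L and 123, 390 and 307 in MOSE-I and Ezh2 1558, 1483 and 738 in MOSE-L against 2179, 2872 and 3095 in MOSE-I, so that the pair changed in opposite directions. Of 25 tested nuclear pore genes 4 were called lower and none higher, with a median of -0.32, among them Nup85 (-1.50) and Nup50 (-1.30). The call of Ccne1 ended without MOSE-I replicate 3 (adjusted p = 0.0622) or MOSE-L replicate 3 (adjusted p = 0.0738). Ccne1 did not pass the signal filter, and so was not tested, without MOSE-I replicate 1. The call of Ccne2 ended without MOSE-L replicate 3 (log2 change -0.96). The call of Ezh2 ended without MOSE-I replicate 3 (adjusted p = 0.0566) or MOSE-L replicate 3 (log2 change -0.80). The call of Ezh1 ended without MOSE-I replicate 1 (log2 change 0.98). Among the G1 regulators, 1 of 2 called lower had passed the filter in MOSE-I alone. The 1 G1 regulator called higher became 0 without E2, E3, I2, I3 or L3, and the 2 called lower became 0 without L3 and 1 without I3. Of the chromatin enzymes, 3 of 3 called higher had passed the filter in MOSE-L alone. The 2 chromatin enzymes called lower became 0 without I3 and 1 without I1, I2 or L3. The 4 nuclear pore genes called lower became 2 without L3 and 7 without L2.

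Targets of p53 and of DNA damage were called higher for 6 of 24 tested and lower for 1, with a median of 0.49. Gadd45a, a growth arrest gene that p53 and stress kinases induce, measured 4173, 2460 and 11226 in MOSE-L and 329.7, 358 and 204 in MOSE-I (log2 change 3.86, adjusted p = 0.000659). Trp53inp1, a p53-induced nuclear protein, measured 7418, 3098 and 7682 in MOSE-L against 1459, 818 and 749.6 in MOSE-I (log2 change 2.48, adjusted p = 0.00356). Of the 13 tested Bcl2 family genes none was called, and Mcl1, the brightest of them, overlapped between the stages (5459, 4782 and 3346 in MOSE-L and 6598, 3977 and 3502 in MOSE-I). Gadd45a, 1 of the 6 p53 targets called higher, had passed the filter in MOSE-L alone. The 6 p53 targets called higher became 3 without I2 or I3, and the 1 called lower became 0 without I1, I2, I3 or L3. Bcl2 family genes called higher went from 0 to 1 without I2, L1 or L2, and those called lower went from 0 to 1 without I2, L1 or L2 and 2 without L3.

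Genes of the unfolded protein response and of ATF4 were called in 1 direction, higher in MOSE-L. When unfolded proteins fill the endoplasmic reticulum or amino acids run short, the kinases PERK and GCN2 raise the factor ATF4, which turns on amino acid transporters and stress regulators. Of 36 tested genes 34 had positive changes, 14 were called higher and none lower, with a median of 0.76 (0.59 with median centring and 0.52 without MOSE-L replicate 3). Nupr1, a stress-induced chromatin protein, measured 7910.4, 4738 and 18135 in MOSE-L against 1379, 2162 and 1432 in MOSE-I (log2 change 2.40 ± 0.40, adjusted p = 0.00316), and the sensor Atf6 measured 1176, 1675 and 4824 in MOSE-L and 479, 469 and 404 in MOSE-I (log2 change 2.12, adjusted p = 0.00574). Ddit3, or CHOP, the factor that links the response to cell death, measured 5404, 2985 and 13913 in MOSE-L against 1368, 1412 and 1297 in MOSE-I (log2 change 2.12, adjusted p = 0.0203), and the cystine transporter Slc7a11 measured 651, 401 and 3018 in MOSE-L and 210.4, 145 and 96.8 in MOSE-I (log2 change 2.34, adjusted p = 0.0179). In each of these 4 genes MOSE-L replicate 3 was the highest array. Not all members followed: Atf4 itself had a log2 change of 0.33, and Asns, asparagine synthetase, of -0.19, and neither was called (adjusted p = 0.255 and 0.703). The call of Ddit3 ended without MOSE-I replicate 1 (adjusted p = 0.0546), MOSE-I replicate 3 (adjusted p = 0.0599) or MOSE-L replicate 3 (adjusted p = 0.057). The call of Slc7a11 ended without MOSE-I replicate 3 (adjusted p = 0.062). Slc7a11 had a log2 change of 1.52 (adjusted p = 0.0294) without MOSE-L replicate 3. Among the stress genes, 4 of 14 called higher, including Slc7a11, had passed the filter in MOSE-L alone. The 14 stress genes called higher became 6 without I3.

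Interferon-stimulated genes and MHC class I were called in 1 direction as well, though most of the interferon genes called had passed the filter in MOSE-L alone. Interferons are cytokines that turn on antiviral genes in the cells they reach. Of 54 listed genes 30 passed the filter, 12 of them in MOSE-L only, and 12 were called higher and none lower, with a median of 0.92 (0.75 with median centring and 0.62 without MOSE-L replicate 3). The 12 that passed in MOSE-L only tilt this median upward. Rtp4 measured 592, 1687 and 2111 in MOSE-L against 57.2, 122 and 83.8 in MOSE-I (log2 change 3.31 ± 0.43, adjusted p = 0.000836). Oas1a, an enzyme that senses viral double-stranded RNA and has near-identical relatives, measured 276, 1231 and 1777 in MOSE-L and 25.7, 193 and 33.1 in MOSE-I (log2 change 2.99, adjusted p = 0.0113), and its relatives Oasl1 and Oasl2 had log2 changes of 2.54 and 2.73 (adjusted p = 0.00263 and 0.0119). In Rtp4 and Oas1a MOSE-L replicate 3 was highest and replicate 1 lowest, and all 3 lay above the MOSE-I arrays. Ifitm2, Ifitm3 and Samhd1 did not follow, with log2 changes of -0.38, -0.26 and -0.26 (adjusted p = 0.301, 0.494 and 0.375), and were chosen after their values were seen. Of 14 tested genes of MHC class I and its peptide loading 4 were called higher and none lower, with a median of 0.58. With median centring the median was 0.41 and 1 of these genes was called lower. H2-K1 measured 3092, 4825 and 14655 in MOSE-L against 685, 1397 and 1308 in MOSE-I (log2 change 2.43, adjusted p = 0.00648) and the peptide transporter Tap2 had a log2 change of 1.95 (adjusted p = 0.0166), and H2-K1 was brightest on MOSE-L replicate 3. Class I genes are near-identical in sequence, so their probe sets may share transcripts. The call of Tap2 ended without MOSE-I replicate 1 (adjusted p = 0.0556) or MOSE-L replicate 3 (adjusted p = 0.0578). Of the interferon genes, 11 of 12 called higher had passed the filter in MOSE-L alone. Among the 18 interferon genes over 500 at both stages 1 was called higher, beside 299 of 6328 such genes in all. Among the class I genes, 1 of 4 called higher had passed the filter in MOSE-L alone. The 4 class I genes called higher became 1 without I1 and 2 without L3, and those called lower went from 0 to 1 without I1 or L1.

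**Figure D4:**
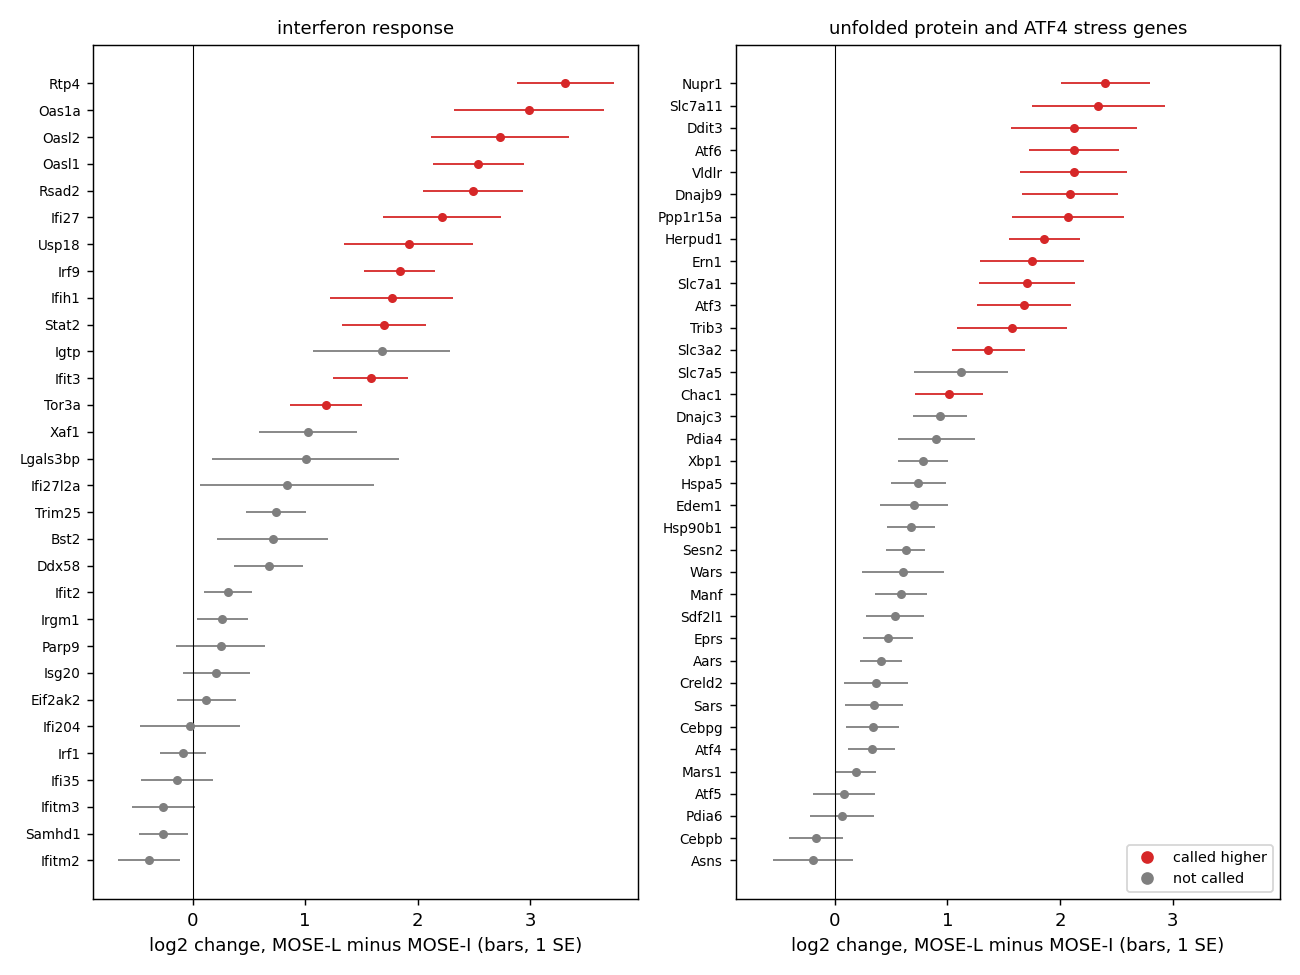
Log2 change from MOSE-I to MOSE-L, with bars of 1 SE, of the 30 tested interferon-stimulated genes (left) and the 36 tested genes of the unfolded protein and ATF4 responses (right). Red points are the 12 and 14 genes called higher, grey points those not called, and none was called lower.

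Promoter sequences are shown for genes of 4 lists (interferon, stress, mitosis and DNA replication genes), each called in 1 direction, since known factors bind short motifs before such genes, and contractile genes were searched too. RefSeq promoters of build GRCm38.p6, 300 bases long with 250 before and 50 from the start, were searched on both strands for 6 motifs, of which CCAAT can fall within a CArG box. The core of the interferon-stimulated response element, GAAA and GAAA with 2 bases of any kind between them, was in 5 of 9 promoters of the interferon genes called higher (8 of the 12 genes were in the table), in 7 of 19 of those tested and not called, and in 3.44% of all 32851 promoters. TGATGNAA, found in composite sites of ATF4 and C/EBP, was in 7 of 15 promoters of the stress genes called higher, in 2 of 20 of those not called and in 3.97% of all. TTTGAA, the cell cycle homology region, was in 15 of 26 promoters of the mitosis genes called lower, in 22 of 26 of those not called and in 17.9% of all, and CCAAT, the NF-Y box often beside it, in 19 of 26, in 20 of 26 and in 37.4%. TTTCCCGC, an E2F site, was in 5 of 31 promoters of the replication genes called lower, in 2 of 15 of those not called and in 1.07% of all. The CArG box that SRF binds was in 1 of 4 promoters of the contractile genes called lower, in 4 of 23 of those not called and in 1.63% of all. The promoters of Oas1a (chr5:120907476-120907775, minus strand) and Rsad2 (chr12:26456403-26456702, minus strand), with this core in capitals, stand for the interferon genes, those of Nupr1 (chr7:126625421-126625720, minus strand), Slc7a11 (chr3:50443564-50443863, minus strand) and Vldlr (chr19:27216770-27217069, plus strand), with TGATGNAA in capitals, for the stress genes, and those of Spc25 (chr2:69206164-69206463, minus strand, TTTGAA in capitals) and Cdc6 (chr11:98907901-98908200, plus strand, TTTCCCGC in capitals) for the cell cycle genes, each read 5′ to 3′ along the gene with matches on either strand in capitals. Rsad2, an antiviral enzyme, and Vldlr, a lipoprotein receptor, which were chosen after their values were seen, had log2 changes of 2.49 and 2.12 (adjusted p = 0.00458 and 0.0117).
Oas1a: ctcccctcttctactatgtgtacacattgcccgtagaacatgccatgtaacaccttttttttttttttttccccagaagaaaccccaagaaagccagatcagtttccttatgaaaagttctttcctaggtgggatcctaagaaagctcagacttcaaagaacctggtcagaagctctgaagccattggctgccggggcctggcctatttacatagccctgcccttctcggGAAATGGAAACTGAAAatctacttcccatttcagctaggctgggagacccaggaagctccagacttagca
Rsad2: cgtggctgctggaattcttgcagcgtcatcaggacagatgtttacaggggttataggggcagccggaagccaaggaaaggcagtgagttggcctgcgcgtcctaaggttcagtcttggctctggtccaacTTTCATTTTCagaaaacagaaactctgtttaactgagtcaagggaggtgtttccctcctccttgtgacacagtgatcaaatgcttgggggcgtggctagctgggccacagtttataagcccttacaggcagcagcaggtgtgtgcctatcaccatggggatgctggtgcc
Nupr1: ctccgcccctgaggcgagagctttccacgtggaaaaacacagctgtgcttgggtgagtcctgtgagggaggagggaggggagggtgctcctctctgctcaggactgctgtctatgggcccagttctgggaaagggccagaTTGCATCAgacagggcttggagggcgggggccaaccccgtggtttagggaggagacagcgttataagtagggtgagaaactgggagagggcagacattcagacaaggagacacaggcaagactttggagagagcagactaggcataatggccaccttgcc
Slc7a11: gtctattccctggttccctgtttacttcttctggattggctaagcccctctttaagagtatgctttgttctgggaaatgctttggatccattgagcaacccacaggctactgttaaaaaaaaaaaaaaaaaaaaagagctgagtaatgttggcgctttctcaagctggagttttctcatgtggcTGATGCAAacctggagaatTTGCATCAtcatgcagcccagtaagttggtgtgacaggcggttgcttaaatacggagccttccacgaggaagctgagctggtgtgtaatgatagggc
Vldlr: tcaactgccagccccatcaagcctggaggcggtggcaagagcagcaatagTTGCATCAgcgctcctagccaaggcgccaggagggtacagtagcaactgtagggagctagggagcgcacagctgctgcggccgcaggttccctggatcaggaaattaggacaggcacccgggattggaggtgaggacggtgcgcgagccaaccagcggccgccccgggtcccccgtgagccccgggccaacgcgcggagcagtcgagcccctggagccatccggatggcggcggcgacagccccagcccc
Spc25: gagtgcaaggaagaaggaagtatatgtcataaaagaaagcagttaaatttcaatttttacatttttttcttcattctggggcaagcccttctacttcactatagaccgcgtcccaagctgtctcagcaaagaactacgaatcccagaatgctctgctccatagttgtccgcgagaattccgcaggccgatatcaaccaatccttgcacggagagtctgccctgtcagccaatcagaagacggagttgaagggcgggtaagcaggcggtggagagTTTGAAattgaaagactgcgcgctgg
Cdc6: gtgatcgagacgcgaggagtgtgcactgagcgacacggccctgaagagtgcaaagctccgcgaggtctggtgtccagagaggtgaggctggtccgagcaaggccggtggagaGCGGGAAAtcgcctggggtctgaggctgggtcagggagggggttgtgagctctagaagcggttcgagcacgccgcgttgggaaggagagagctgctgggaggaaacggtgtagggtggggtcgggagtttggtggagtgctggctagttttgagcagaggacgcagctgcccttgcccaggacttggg

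Secreted immune mediators changed one by one. Of 15 tested chemokines, cytokines and receptors 4 were called higher and 2 lower. Il1rn, the antagonist of the interleukin 1 receptor, measured 1995, 1838 and 442 in MOSE-L and 142, 94 and 121 in MOSE-I (log2 change 2.88, adjusted p = 0.0034), and the chemokine Cxcl16 measured 796, 1463 and 1326 in MOSE-L against 208, 261 and 237 in MOSE-I (log2 change 2.08, adjusted p = 0.000382). Il1rn was lowest on MOSE-L replicate 3 and still above each MOSE-I array. Ccl5 had a log2 change of 2.04 (adjusted p = 0.026). All 8 tested complement genes had positive changes and 3 were called, with the protease Masp1 at 2.28 (adjusted p = 0.00151) and the shield Cd55 at 2.18 (adjusted p = 0.0339) beside Clu, as log2 changes. The call of Ccl5 ended without MOSE-I replicate 1 (adjusted p = 0.0661), MOSE-I replicate 2 (adjusted p = 0.0566) or MOSE-I replicate 3 (adjusted p = 0.0675). Ccl5 did not pass the signal filter, and so was not tested, without MOSE-L replicate 3. The call of Cd55 ended without MOSE-I replicate 3 (adjusted p = 0.0592), MOSE-L replicate 2 (adjusted p = 0.0664) or MOSE-L replicate 3 (adjusted p = 0.0934). Cd55 had a log2 change of 1.20 (adjusted p = 0.0416) without MOSE-I replicate 1. Of the cytokine and receptor genes, 4 of 4 called higher had passed the filter in MOSE-L alone and 1 of 2 called lower in MOSE-I alone. Among the complement genes, 1 of 3 called higher had passed it in MOSE-L alone. The 4 cytokine and receptor genes called higher became 2 without I1, I3 or L3, and the 2 called lower became 1 without I1, I2, I3, L1, L2 or L3.

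Lysosomal genes had mostly positive changes. Of 42 tested lysosomal genes 39 were positive and 6 were called higher, none lower, with a median of 0.61 (0.43 with median centring, which left 3 called). Ctsh, a cysteine protease, measured 1651, 4562 and 4036 in MOSE-L and 401, 154 and 76.5 in MOSE-I (log2 change 3.81, adjusted p = 0.000508), and the asparaginyl protease Lgmn and the mannosidase Manba had log2 changes of 1.98 and 1.58 (adjusted p = 0.00415 and 0.00153). In lipid synthesis and storage 5 of 26 were called higher and 1 lower. Lpl, lipoprotein lipase, measured 9378, 12622 and 22908 in MOSE-L against 835, 2469 and 2398 in MOSE-I (log2 change 2.99, adjusted p = 0.00115), and Acsl4, which activates arachidonic acid, 5772, 5779 and 8878 in MOSE-L and 1345, 2557 and 2071 in MOSE-I (log2 change 1.77, adjusted p = 0.00225). Agpat2, an enzyme of triglyceride synthesis, went the other way at a log2 change of -1.68 (adjusted p = 0.000222). Of 22 tested cholesterol genes 3 were called higher, with Cyp51 at 21514, 17462 and 16109 in MOSE-L against 8485, 6474 and 6636 in MOSE-I (log2 change 1.34) and Insig2, a brake on that synthesis, at 1.27 on the log2 scale. Of 19 tested sphingolipid genes 4 were called higher and none lower, led by Sgms2, a sphingomyelin synthase, with a log2 change of 2.32 (adjusted p = 0.00168). Of the lysosomal genes, 5 of 42 tested and 2 of 6 called higher, Ctsh among them, had passed the filter in MOSE-L alone. The 6 lysosomal genes called higher became 12 without L1. Among the lipid synthesis and storage genes, 1 of 5 called higher had passed the filter in MOSE-L alone and the 1 called lower in MOSE-I alone. The 5 lipid synthesis and storage genes called higher became 3 without L3 and 8 without L1. Of the sphingolipid genes, 2 of 4 called higher had passed the filter in MOSE-L alone. The 4 sphingolipid genes called higher became 7 without L1.

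In glycolysis 3 of 20 tested genes were called higher and 3 lower, with a median of -0.01 that was 0.09 with quantile normalization. Aldoc, a brain-type aldolase, measured 1896, 673 and 1007 in MOSE-L and 254, 58 and 114 in MOSE-I (log2 change 2.70, adjusted p = 0.00267), and Ldhb, the heart-type lactate dehydrogenase subunit, 3576, 2118 and 1442 in MOSE-L against 404, 458 and 465 in MOSE-I (log2 change 2.21, adjusted p = 0.000659). Eno3, the muscle-type enolase, fell, with 1098, 1378 and 1278 in MOSE-L and 3976, 6145 and 6829 in MOSE-I (log2 change -2.10, adjusted p = 0.000202). Respiratory chain genes were called for 1 of 59 tested and ribosomal protein genes for 1 of 37, both lower, yet 52 of the 59 and 35 of the 37 had negative changes, with medians of -0.44 and -0.50. The single calls were Ndufa5, of complex I (-1.09, adjusted p = 0.0109), and Rps25 (-1.34, adjusted p = 0.00112), as log2 changes. With quantile normalization these medians were -0.27 and -0.14, so that the size of the ribosomal shift depends on the scaling. Of 37 tested antioxidant and glutathione genes 4 were called higher and none lower, with Gsta4, a glutathione transferase, at 16696, 12961 and 21402 in MOSE-L against 4039, 6503 and 6416 in MOSE-I (log2 change 1.58, adjusted p = 0.0136) and Ephx1, an epoxide hydrolase, at 1.38 (adjusted p = 0.00947). Among the S100 proteins and annexins 3 of 14 were called lower and none higher, with Anxa8, a calcium-dependent membrane binder, at 881, 1859 and 913 in MOSE-L and 12101, 10709 and 9728 in MOSE-I (log2 change -3.18 ± 0.27, adjusted p = 4.89e-05). The call of Ndufa5 ended without MOSE-L replicate 3 (log2 change -0.95). Among the glycolysis genes, 2 of 3 called higher, Aldoc and Ldhb, had passed the filter in MOSE-L alone. The 3 glycolysis genes called lower became 1 without L3. The 1 respiratory chain gene called lower became 0 without L3, 2 without I1 and 5 without L1. Ribosomal protein genes called higher went from 0 to 1 without L1, and the 1 called lower became 3 without L1. Among the antioxidant genes, 1 of 4 called higher had passed the filter in MOSE-L alone. The 4 antioxidant genes called higher became 2 without I3, and those called lower went from 0 to 1 without I1, I2 or L1. The 3 S100 and annexin genes called lower became 1 without L3.

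**Figure D5:**
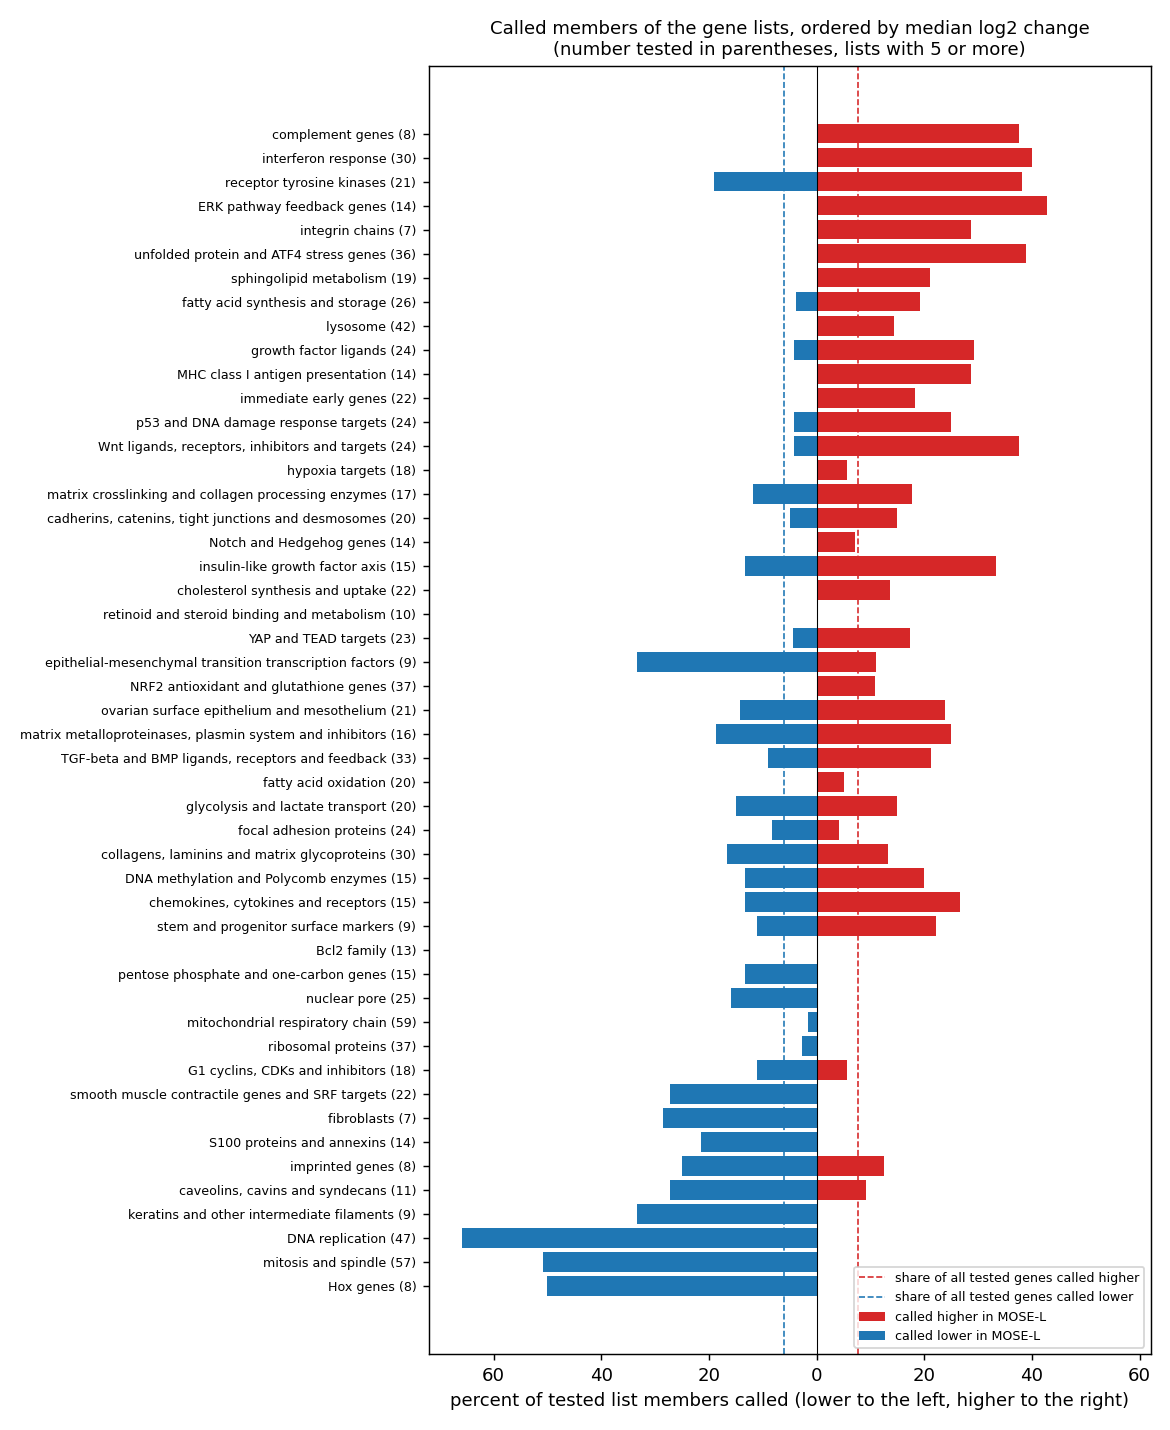
Percent of tested members called lower (blue, to the left) and higher (red, to the right) in MOSE-L for gene lists with at least 5 tested members, ordered by the median log2 change, with the number tested given beside its name. Dashed lines mark the 5.99% and 7.61% of all tested genes called lower and higher, and DNA replication, mitosis and Hox genes reach furthest to the left.

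The called genes were spread over all chromosomes. The stages of this series were classed in part by aneuploidy, a changed number of chromosomes, which can move the genes of a chromosome together. The median log2 change of a chromosome's tested genes ran from -0.20 on chromosome X to 0.13 on chromosome 5. On chromosome 5, 54 of 519 tested genes (10.4%) were called higher and 13 (2.50%) lower, while on chromosome 11, 28 of 630 (4.44%) were called higher and 55 (8.73%) lower. Over all tested genes these shares were 7.61% and 5.99%. With median centring the chromosome 5 median was -0.05, so that no chromosome had a positive median under that scaling. The longest run of neighbouring tested genes called the same way held 4 genes on chromosome 16, namely St6gal1, Masp1, Rtp4 and Bcl6, all higher, with log2 changes of 1.23, 2.28, 3.31 and 1.09. St6gal1, a sialyltransferase, measured 2057, 1743 and 2016 in MOSE-L against 886, 1034 and 544 in MOSE-I, and Bcl6, a transcriptional repressor, 614, 631 and 1130.2 in MOSE-L and 302, 365 and 331 in MOSE-I. The call of St6gal1 ended without MOSE-I replicate 3 (log2 change 0.98). The call of Bcl6 ended without MOSE-L replicate 3 (log2 change 0.82). A run of this length has no test here, since genes of a family or of 1 process can be neighbours. Runs of 3 were found 8 times, among them Mgp, Arhgdib and Eps8 on chromosome 6, all lower, whose calls held with each array left out.

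Imprinted genes, which are read from 1 parental copy, were tested for 8 of 28, with 1 called higher and 2 lower. Ddc and Sgce fell, with 92.9, 67.4 and 19.1 in MOSE-L against 210.5, 2699 and 2076 in MOSE-I for Ddc (log2 change -3.45, adjusted p = 0.00805) and 10.9, 82.7 and 27.7 in MOSE-L and 97, 2422 and 1786 in MOSE-I for Sgce (log2 change -3.35, adjusted p = 0.0172). On MOSE-I replicate 1 both were near the MOSE-L range, at 210.5 and 97, although MOSE-E had 1255, 864 and 948 and 1256, 1914 and 1897. Markers of other cell types gave 2 further calls, Star, a carrier of cholesterol into mitochondria in steroid-making cells, with 308, 254 and 1402 in MOSE-L against 76.3, 30.7 and 80.6 in MOSE-I (log2 change 2.30, adjusted p = 0.0227), and Esam, an endothelial adhesion molecule, with 957, 882 and 2591 in MOSE-L and 560.5, 302 and 189 in MOSE-I (log2 change 1.86, adjusted p = 0.0111). Both were highest on MOSE-L replicate 3. Star passed 500 there alone, and on that array the defining granulosa genes Fshr and Amh measured 82.7 and 9.91 and the endothelial Pecam1 and Cdh5 16.3 and 37.5. Of the other granulosa markers under 500 on all arrays, Nr5a1, a factor of steroid-making cells, measured 415.7, 336.7 and 416.5 in MOSE-L and 16.5, 42.2 and 23.8 in MOSE-I, and Foxl2, also a defining granulosa gene, 491, 419 and 453 in MOSE-L and 329.8, 306 and 286 in MOSE-I, both without overlap and untested. Among endothelial markers under 500, Flt1 and Tek were higher in MOSE-L and Egfl7 lower, each without overlap and untested. Flt1 measured 72.6, 271 and 167 in MOSE-L and 40.1, 14.4 and 71.1 in MOSE-I. Egfl7 measured 59.0, 178 and 71.7 in MOSE-L and 266, 248 and 242 in MOSE-I. The call of Sgce ended without MOSE-I replicate 2 (adjusted p = 0.0537) or MOSE-I replicate 3 (adjusted p = 0.0642). The call of Star ended without MOSE-I replicate 2 (adjusted p = 0.0653) or MOSE-I replicate 3 (adjusted p = 0.0578). Star did not pass the signal filter, and so was not tested, without MOSE-L replicate 3. Of the imprinted genes, 2 of 2 called lower had passed the filter in MOSE-I alone. The 1 imprinted gene called higher became 2 without I2, and the 2 called lower became 1 without I2 or I3 and 4 without I1.

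In each of the remaining lists at most 4 genes were called in either direction, beside 7.61% of all tested genes called higher and 5.99% lower. Of 23 tested targets of YAP and TEAD 4 were called higher and 1 lower, with the phosphatase Ptpn14 at a log2 change of 1.07 (adjusted p = 0.0111). Of 9 surface markers of stem and progenitor cells 2 were called higher and 1, Cd24a, lower, and Alcam, an adhesion molecule, had a log2 change of 1.82 (adjusted p = 0.00979). Of 20 tested genes of fatty acid oxidation 1 was called, the thioesterase gene Acot1 (1.74, adjusted p = 0.0189), and of 18 hypoxia targets 1, Ero1a (2.31, adjusted p = 0.0238), an oxidase of the endoplasmic reticulum, both higher. Of 15 tested genes of the pentose phosphate and one-carbon pathways 2 were called lower, among them Mthfd1 (-1.05, adjusted p = 0.0213), a folate enzyme, with log2 changes in parentheses. None of 10 tested genes of retinoid and steroid binding was called. The call of Ptpn14 ended without MOSE-I replicate 2 (log2 change 0.99) or MOSE-L replicate 3 (log2 change 0.84). The call of Acot1 ended without MOSE-I replicate 2 (adjusted p = 0.0572) or MOSE-I replicate 3 (adjusted p = 0.0663). The call of Ero1a ended without MOSE-I replicate 1 (adjusted p = 0.0594), MOSE-I replicate 2 (adjusted p = 0.0501) or MOSE-I replicate 3 (adjusted p = 0.0722). Ero1a had a log2 change of 1.32 (adjusted p = 0.00547) without MOSE-L replicate 3. The call of Mthfd1 ended without MOSE-I replicate 1 (adjusted p = 0.0676), MOSE-I replicate 3 (adjusted p = 0.0525) or MOSE-L replicate 3 (adjusted p = 0.0599). The 1 YAP and TEAD target called lower had passed the filter in MOSE-I alone. The 4 YAP and TEAD targets called higher became 0 without L3 and 1 without I2, I3 or L2, and the 1 called lower became 0 without E1, E2, E3, I1, I3, L1, L2 or L3. Among the progenitor markers, 1 of 2 called higher had passed the filter in MOSE-L alone. The 1 progenitor marker called lower became 2 without I2 or I3. Of the oxidation genes, the 1 called higher had passed the filter in MOSE-L alone. The 1 oxidation gene called higher became 0 without I2 or I3 and 2 without E1, E3 or L2, and those called lower went from 0 to 1 without L1. The 1 hypoxia target called higher became 0 without I2 or I3, 2 without L1 and 3 without L2, and those called lower went from 0 to 1 without L3. Of the pentose and one-carbon genes, 1 of 2 called lower had passed the filter in MOSE-I alone. Pentose and one-carbon genes called higher went from 0 to 1 without L2, and the 2 called lower became 0 without I1, I3 or L3 and 1 without E1, E2, E3 or L1. Retinoid and steroid genes called higher went from 0 to 1 without L1.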

How the data were processed

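RNA of cultured MOSE cells was labelled and hybridised to Affymetrix whole-genome mouse arrays, 1 array a culture. The authors deposited MAS 5.0 signals, intensity values on a linear scale, scaled to a trimmed mean of 500 on each array, and these were used as deposited after the 64 control probe sets were left out. The number of arrays limits the precision. Of 45101 probe sets, 34958 named 1 gene in the platform annotation, 932 named several and 9211 none, and only the first named genes. Probe sets past the signal filter were compared on log2(signal + 50) with limma 3.58.1 (R 4.3.3), in 1 fit of all 9 arrays with a mean for each stage and a variance trend, and p-values were adjusted by Benjamini-Hochberg over all 13310. A gene took its probe set with the highest mean signal. Tested on simulated data, the fit called 36 of 100 probe sets changed 2-fold and 90 of 100 changed 4-fold, with 7 of 13110 unchanged ones. A 2-fold change lies at the call's own threshold, and 52 of these 100 passed the adjusted p alone. The changed probe sets had a mean over 500, and the simulated noise was independent, with no shift of a whole array. These shares are therefore not the error rates of the real comparison.

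The text names the 12 largest rises and 12 largest falls, up to 4 called members with the largest changes of each of 53 gene lists, defining markers and the longest run of neighbours. The result of 1 list is not reported here. Genes whose call ended without 4 or more single arrays were counted and not named, and 16 genes were named besides this rule after their values were seen. The comparison, the lists and their members were chosen with earlier results of these data known, and several themes (cytoskeleton, lysosome, lipids, growth factors) are ones the study drew from these arrays, so list counts are descriptions. Alternatives covered the pseudocount, scaling, signal filter, thresholds, array weights, the methods' t-test, a replicate block, probe set averaging and each array left out.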

Additional observations from a re-analysis of the deposited data

How the results depend on the processing

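Against 1108 probe sets called higher and 777 lower, or 588 and 463 genes, these settings moved a count by over 1.5 times. Median centring gave 1265 probe sets and 748 genes lower, and cut the share of calls that were higher from 58.78% to 38.65% of probe sets. An adjusted p of at most 0.01 gave 492 and 358 probe sets and 273 and 223 genes, and dropping the minimum change gave 1839 and 1918 probe sets and 1053 and 1117 genes. The methods' t-test on signals, at their thresholds and unadjusted, gave 733 probe sets higher and 689 lower, and after Benjamini-Hochberg adjustment 3 and 6 probe sets and 1 and 4 genes. With 1 array left out the counts ran from 675 to 1596 and from 460 to 1117 probe sets, and from 384 to 814 and from 287 to 655 genes, with each lowest count without MOSE-L replicate 3 and each highest without MOSE-L replicate 1. All 24 largest changes and 114 of the 174 named genes that were called stayed called with each of the 9 arrays left out, and no called change of a named gene reversed under any setting. Deviations of arrays with the same replicate number correlated at -0.05, -0.12 and -0.02, so the numbers share no more than a number. With the replicate as a block 1160 and 786 probe sets and 594 and 470 genes were called, and 1 of the 174 named calls was lost. Low signals limit folds, since 27.2% to 35.3% of signals per array were under 50.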
